A study of Mus musculus with 2 samples.

Results

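The 9 genes described here encode enzymes of the first half-turn of the tricarboxylic acid cycle and their cytosolic relatives: Cs, Aco1, Idh1, Idh2, Idh3a, Idh3b, Idh3g, Ogdh and Dlst. Their probes were found by matching the RefSeq accession of each non-control probe to the gene symbol, and all 9 were on the array, among 20618 named genes. The samples were mouse leukaemia cells of the B lineage (B-ALL, acute lymphoblastic leukaemia) from bone marrow of the C57BL strain at an age of 8 weeks, sorted by the fluorescence ratio of the sensor SoNar. SoNar is a genetically encoded reporter that responds to cytosolic NADH and NAD+, and its ratio separated a SoNar-high from a SoNar-low population. Each population was measured on 1 Agilent 1-colour array, and the title of the SoNar-high sample is N-myc-high and that of the SoNar-low sample N-myc-low, a naming the labels do not explain. The labels used here name no driver of the leukaemia and no promoter of the sensor, and do not say how many mice were pooled.

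In mitochondria, citrate synthase joins acetyl-CoA to oxaloacetate, citrate is turned into isocitrate, isocitrate dehydrogenase makes 2-oxoglutarate, and the oxoglutarate dehydrogenase complex makes succinyl-CoA. Isocitrate dehydrogenase exists as an NAD-linked mitochondrial enzyme built from the Idh3a, Idh3b and Idh3g subunits, which yields NADH, and as NADP-linked enzymes, Idh1 in the cytosol and Idh2 in mitochondria, which yield NADPH. NADH formed in mitochondria reaches the cytosolic pair that the sensor reads only through shuttles. The comparison asks whether NAD-linked and NADP-linked isocitrate dehydrogenase transcripts differed between the populations.

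Promoter sequences from RefSeq (GRCm38.p6) are shown for the isocitrate dehydrogenases that are compared and for Ogdh, whose probes disagreed. Each is the 250 bases before an annotated start, 5′ to 3′ in the direction of transcription, with matches to GGGCGG (the GC box), CCAAT (the CCAAT box), CACGTG (the E-box) or TGACGTCA (the cAMP response element) on either strand in capitals. A window was held for 8 of the 9 genes, which excludes Idh3a, and Idh1 has 2 annotated starts, of which the upstream one is shown. Ogdh has 6 annotated starts, of which the first and the fifth are shown.
Idh3b, chr2:130284452-130284701, minus strand: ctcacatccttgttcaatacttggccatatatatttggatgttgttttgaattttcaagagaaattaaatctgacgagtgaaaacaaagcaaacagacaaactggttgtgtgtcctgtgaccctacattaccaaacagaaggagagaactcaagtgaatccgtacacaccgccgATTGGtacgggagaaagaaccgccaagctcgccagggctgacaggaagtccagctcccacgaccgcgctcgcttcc
Idh3g, chrX:73786898-73787147, minus strand: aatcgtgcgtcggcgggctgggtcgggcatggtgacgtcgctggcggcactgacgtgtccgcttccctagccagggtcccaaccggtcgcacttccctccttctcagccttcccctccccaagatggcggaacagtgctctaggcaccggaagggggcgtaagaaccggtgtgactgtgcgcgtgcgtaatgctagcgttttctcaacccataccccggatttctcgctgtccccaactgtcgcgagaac
Idh1, chr1:65186480-65186729, minus strand: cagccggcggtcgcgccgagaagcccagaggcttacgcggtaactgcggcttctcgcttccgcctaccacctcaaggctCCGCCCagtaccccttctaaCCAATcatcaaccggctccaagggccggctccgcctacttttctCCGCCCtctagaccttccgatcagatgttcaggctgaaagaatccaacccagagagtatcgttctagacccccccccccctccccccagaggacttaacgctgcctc
Idh2, chr7:80115351-80115600, minus strand: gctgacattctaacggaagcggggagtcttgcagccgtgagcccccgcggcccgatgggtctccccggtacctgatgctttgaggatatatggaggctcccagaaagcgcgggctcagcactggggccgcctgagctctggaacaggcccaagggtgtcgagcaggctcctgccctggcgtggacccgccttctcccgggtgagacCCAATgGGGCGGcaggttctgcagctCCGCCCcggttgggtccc
Ogdh start 1, chr11:6291347-6291596, plus strand: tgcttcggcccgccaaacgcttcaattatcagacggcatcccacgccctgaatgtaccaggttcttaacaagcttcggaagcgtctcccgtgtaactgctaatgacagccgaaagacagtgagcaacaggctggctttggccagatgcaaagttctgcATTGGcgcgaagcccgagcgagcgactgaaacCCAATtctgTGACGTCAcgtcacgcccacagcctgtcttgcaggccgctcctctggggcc
Ogdh start 5, chr11:6292308-6292557, plus strand: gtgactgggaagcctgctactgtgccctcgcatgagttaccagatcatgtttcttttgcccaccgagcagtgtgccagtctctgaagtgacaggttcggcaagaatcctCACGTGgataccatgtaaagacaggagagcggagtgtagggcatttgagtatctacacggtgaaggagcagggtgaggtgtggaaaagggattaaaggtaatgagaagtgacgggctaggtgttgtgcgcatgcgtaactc

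The windows differed in these letters. The Idh2 window held a CCAAT box 44 to 40 bases before the start, followed by GC boxes 38 to 33 and, on the opposite strand, 18 to 13 bases before it, and the upstream Idh1 window held 2 GC boxes and 1 CCAAT box. The Idh3b window held 1 CCAAT box and no GC box, and the Idh3g window held none of the 4 motifs. At its first start Ogdh had the cAMP response element TGACGTCA 51 to 44 bases upstream, and at the fifth start an E-box 141 to 136 bases upstream. Of all 32851 promoter windows of this length, 32.7% held a GC box, 33.8% a CCAAT box, 6.02% an E-box and 1.55% the full cAMP response element. The half-site AAGGTCA of estrogen-related receptors, found in 4.08% of windows, had no match in the windows of these genes. No match overlapped another, and a match is a description of letters in the window.

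A difference is the log2 level on the SoNar-high array minus that on the SoNar-low array, each level being the log2 processed signal minus the 75th percentile of its array. That percentile corresponded to a signal of 525 for SoNar-high and 475 for SoNar-low. The share of the 43020 non-control spots that passed the background flag was 72.9% for SoNar-high and 44.8% for SoNar-low, and 0 spots were saturated. With 1 array per group there is no replicate check and no test was made, and precision is limited by having 2 arrays. Scanning took place in separate sessions, so session and group cannot be told apart. As guides to measurement error, the scanner software gave each signal an error, about 10% for the bright probes here, which makes 0.20 on a log2 difference. Repeat spots of the 193 repeated probes that were well above background on both arrays had a median SD of 0.15. Among 2021 genes with exactly 2 measured probes, the probes of a gene differed by a median of 0.43 in their log2 differences, and by 1.15 at the 90th percentile.

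Cells of the B lineage were checked with 14 marker genes. On both arrays 10 of the 14 were well above background, while Rag1, Rag2, Igll1 and Il7r were not on either. In units of the 75th percentile, the summed signal of the 14 was 106 in SoNar-high cells and 133 in SoNar-low cells. The 10 measured had a median log2 difference of -0.31, against -0.17 for all measured genes. Of the 10, 6 were below that median of all genes and 4 above it. Against 0, 8 of the 10 were below, among them the B lineage transcription factor Ebf1 at -0.92. Cd79b and Pax5 were above 0. Markers of other cells were also measured. The summed signal of 12 neutrophil genes was 50.9 in SoNar-high cells and 41.0 in SoNar-low cells, and 10 of the 11 measured had differences above the median of all genes. Erythroid genes summed to 29.6 in SoNar-high and 48.9 in SoNar-low cells, and stromal and endothelial genes to 17.3 in SoNar-high and 27.8 in SoNar-low cells. Natural killer genes summed to 2.60 in SoNar-high and 1.38 in SoNar-low cells, T cell genes to 4.42 in SoNar-high and 4.28 in SoNar-low cells, and monocyte and macrophage genes to 1.61 in SoNar-high and 0.81 in SoNar-low cells. A few bright genes set some of these sums, so the members were also counted. Differences were above the median of all genes for 2 of 3 measured erythroid genes (median 1.67), 3 of 4 stromal and endothelial genes (median 0.50), 2 of 2 natural killer genes (0.99 and 1.22), 3 of 4 T cell genes (median 0.70) and 2 of 2 monocyte and macrophage genes (0.37 and 1.25). The lower erythroid sum followed Hemgn, with signals of 14153 in SoNar-high cells and 22791 in SoNar-low cells, and the lower stromal and endothelial sum followed Alpl, with 7773 in SoNar-high cells and 12517 in SoNar-low cells. Among defining markers Gzmb, Cd3d and Ccr2 failed the background flag on both arrays, whereas Cd3e (2.39-fold), Prf1 (2.32-fold) and Csf1r (2.38-fold) were measured and higher in SoNar-high cells. The T cell gene Lck went the other way, with signals of 858 in SoNar-high cells and 1490 in SoNar-low cells (1.92-fold lower in SoNar-high cells). The part of other cells in the results was not tested, and in such bulk samples fewer cells of a type and less RNA per cell cannot be told apart.

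Of the 9 genes, 7 were measured on both arrays, and none of these differed by a factor of 2 in either direction (0 higher and 0 lower in SoNar-high cells). A 2-fold higher value was found for 4.87% of all 10517 measured genes and a 2-fold lower value for 1.68%, so counts of 0 among 7 genes are near this background. Of the genes past 2-fold, 74.3% were higher, but the share was 92.3% when the percentile was computed from detected spots alone (those above background on each array), 4.03% with median scaling, 52.4% with quantile normalization, 60.7% with cyclic loess and 45.4% in the authors' deposited table. The 7 differences had a median of -0.50, against -0.17 for all measured genes, and 5 of the 7 lay below the median of all genes. That gap of -0.33 was -0.17 with quantile normalization, -0.13 with cyclic loess, -0.22 with normexp and -0.14 in the authors' deposited table, each with 4 of 7 below. Cs, Idh2, Idh3a and Dlst lay between -0.65 and -0.50, Idh3g and Idh3b were nearer to 0, and Ogdh was above 0, although not with median scaling, the brightest probe or the median of its probes. Bright genes as a whole had low differences, with a median of -0.33 in the brightest 10% of genes, which hold the 6 measured members other than Ogdh.

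**Figure D1:**
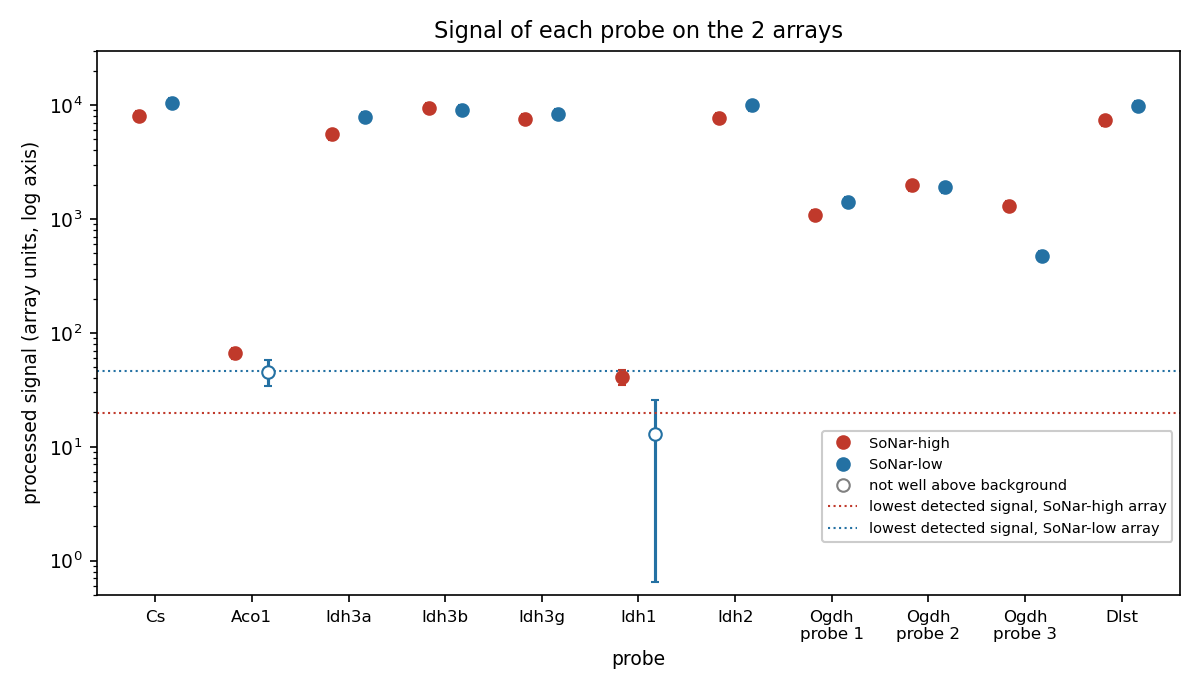
Processed signal (array units, log axis) of the 11 probes of the 9 genes on the SoNar-high array (left point of each pair) and the SoNar-low array (right point). Error bars are the scanner software's error, smaller than the points for bright probes (the lower bar of Idh1 on SoNar-low reaches nearly to 0), open points were not well above background, and levels of different probes are not comparable. Aco1 and Idh1 lie near the detection limits, and the third Ogdh probe is the one with a wide gap.

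Citrate synthase commits acetyl-CoA to the cycle. The probe of Cs (A_52_P182659) had a processed signal of 8101 in SoNar-high cells and 10432 in SoNar-low cells. After scaling this was a log2 difference of -0.51, or 1.42-fold lower in SoNar-high cells, more than the 0.20 of the software error but within the 1.15 that separates the probes of a gene at the 90th percentile. It stood at percentile 21.9 of all measured genes and at percentile 30.6 of the brightest 10%. The related gene Csl, a citrate synthase-like copy and no member here, had signals of 354 in SoNar-high cells and 236 in SoNar-low cells, a log2 difference of 0.44, or -0.17 with median scaling. Cross-hybridisation between the copies was not tested.

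Aco1 encodes cytosolic aconitase, which without its iron-sulfur cluster acts as iron regulatory protein 1 and binds mRNAs of iron metabolism. Its probe (A_55_P2085880) had a signal of 66.5 with a software error of 7.77 in SoNar-high cells, and 45.8 with an error of 11.6 in SoNar-low cells, where it was not well above background. Because the lowest detected signal was 46.4 on the SoNar-low array, Aco1 has only a bound there, 1.30-fold higher in SoNar-high cells before measurement error. On the log2 scale the bound was 0.38, and 0.59 with the percentile from detected spots, while with median scaling it was -0.24 and gave no fold. The bound of 0.38 was smaller than the software error of 0.40 on the log2 difference, so a higher level in SoNar-high cells was not established.

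The NAD-linked isocitrate dehydrogenase is an oligomer with Idh3a as the catalytic subunit and Idh3b and Idh3g as subunits needed for assembly and allosteric control. The Idh3a probe (A_51_P268559) had a signal of 5534 in SoNar-high cells and 7878 in SoNar-low cells. Its log2 difference of -0.65, 1.57-fold lower in SoNar-high cells, was the lowest of the 7 and stood at percentile 12.3 of all genes and 16.3 of the brightest 10%. Idh3g (A_51_P136729) had signals of 7571 in SoNar-high cells and 8350 in SoNar-low cells, a log2 difference of -0.29. Idh3b (A_51_P130110) had signals of 9471 in SoNar-high cells and 9083 in SoNar-low cells, a log2 difference of -0.08 that is smaller than the software error. The gap of 0.57 between the highest and the lowest of the 3 subunits of 1 enzyme exceeded the software error of 0.29 for a difference between 2 such genes. It was above the median gap of 0.43 between the 2 probes of a single gene, but within the 1.15 at the 90th percentile of that gap. A range over 3 genes also tends to be wider than a difference between 2 by construction.

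The NADP-linked enzymes supply NADPH, Idh2 in mitochondria and Idh1 in the cytosol and peroxisomes. The Idh2 probe (A_55_P2118684) had a signal of 7760 in SoNar-high cells and 9922 in SoNar-low cells. Its log2 difference was -0.50, 1.41-fold lower in SoNar-high cells, at percentile 22.7 of all genes. The Idh1 probe (A_51_P132978) was dim, with a signal of 41.0 and a software error of 6.42 in SoNar-high cells, where it was well above background. In SoNar-low cells its signal was 12.9 with an error of 12.9, as large as the signal, and it was not well above background. Since the level in SoNar-high cells lay under the lowest detected level of the SoNar-low array, no fold is given for Idh1.

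Set against each other, the NAD-linked subunits had a mean log2 difference of -0.34 (SD 0.29 over the 3 genes) and the NADP-linked enzymes, of which only Idh2 was measured, one of -0.50. The NAD-linked minus NADP-linked contrast was 0.16, a ratio of 1.12 between the folds. This was smaller than its software error of 0.24 and than the spread among the NAD-linked subunits themselves. Idh3a differed from Idh2 by -0.16, Idh3g by 0.21 and Idh3b by 0.41, so the subunits lay on both sides of Idh2. A scaling by 1 number per array cancels in the contrast. Each of these genes has a single bright probe, so the stricter filter and the probe-choice and outlier settings repeat 0.16 by construction. Among settings that measured Idh2 alone, those free to change it gave 0.18 with quantile normalization and 0.16 with cyclic loess. The contrast was 0.19 with normexp and 0.17 in the authors' deposited table. In the 2 settings that let dim probes in, Idh1 entered with its undetected SoNar-low signal and the contrast was -0.85. The mean of the NAD-linked subunits thus did not differ from Idh2 by more than the software error, and Idh1 could not be compared. Taken singly, the 0.41 of Idh3b exceeded the software error of 0.29 for a difference between 2 such genes, and Idh3a and Idh3g did not. The 0.41 was below the median gap of 0.43 between the 2 probes of a gene.

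**Figure D2:**
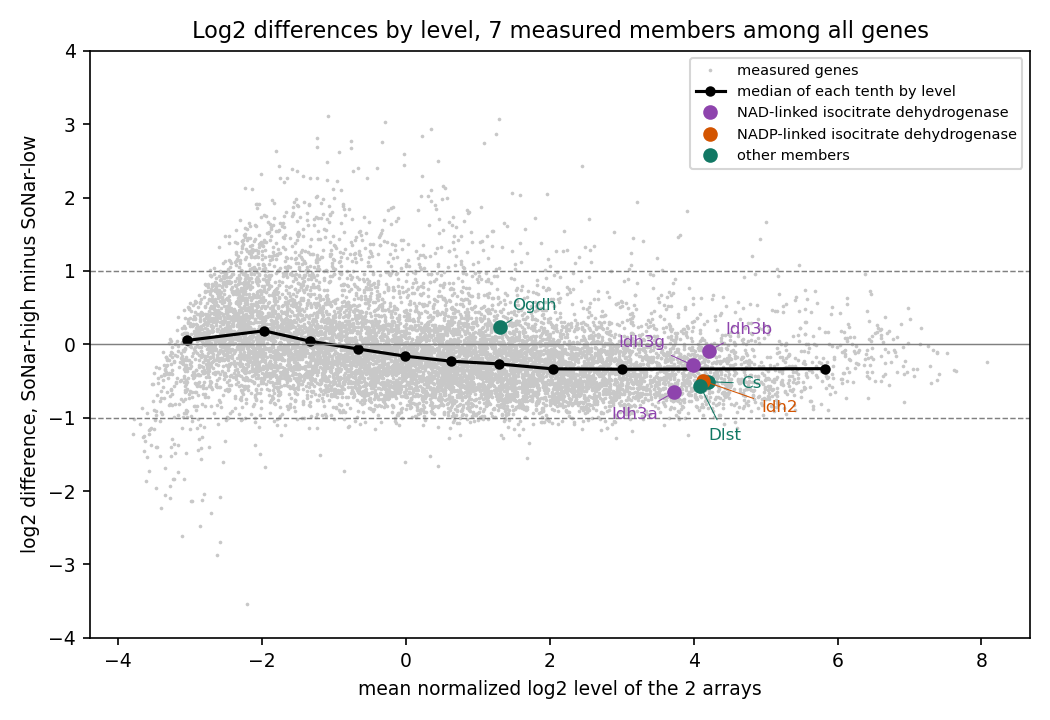
The log2 difference, SoNar-high level minus SoNar-low level, against the mean normalized log2 level of the arrays for 10517 measured genes (grey), with the 7 measured members coloured by cofactor and the median of each 10% of genes by level in black; dashed lines mark a 2-fold difference. The bright members lie around the median of the brightest 10% of genes, -0.33, with Idh3b at -0.08 and Idh3a at -0.65 as extremes.

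The oxoglutarate dehydrogenase complex, which makes NADH and succinyl-CoA, takes its first component from Ogdh and its succinyltransferase core from Dlst. The Dlst probe (A_51_P290139) had a signal of 7346 in SoNar-high cells and 9808 in SoNar-low cells, a log2 difference of -0.56 or 1.48-fold lower in SoNar-high cells. Ogdh was the only member with several probes, and they disagreed. The first (A_55_P2006280) had signals of 1084 in SoNar-high cells and 1409 in SoNar-low cells, and the second (A_55_P2006281) had 1969 in SoNar-high cells and 1892 in SoNar-low cells. Their log2 differences were -0.52 and -0.09. The third (A_55_P2006277) had signals of 1312 in SoNar-high cells and 477 in SoNar-low cells, a log2 difference of 1.32 or 2.49-fold higher in SoNar-high cells. The gene value of 0.24 is the mean of the 3, with an SD of 0.96 between them, and the direction of Ogdh therefore rests on the third probe: it was -0.09 with the brightest probe or the median of the probes, and -0.38 with median scaling. Of 322 genes with exactly 3 measured probes, 6.21% had a gap between probes as large as the 1.84 of Ogdh. The file lists the same transcript for the 3 probes, and which of the 6 annotated starts shown in part above each probe follows was not tested.

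The directions of the other members were compared across 13 settings. Cs, Idh2, Idh3a, Idh3g and Dlst had differences below 0 in all 13, and Cs, Idh2, Idh3a and Dlst were also below the median of all genes in all 13. Idh3g was below that median in 9 settings. Idh3b was below 0 in 9, and was at 0.13 with the percentile over detected spots, 0.03 with quantile normalization, 0.16 with cyclic loess and 0.02 in the authors' deposited table. Each of these genes has a single bright probe, so the filter, probe-choice and outlier settings could not change its difference and only repeat the main value. A constant shift of all values cannot change the place of a gene against the median of all genes. Median scaling lowered every log2 difference by the same 0.61, so that the median of all genes was -0.78, and Cs, Idh2, Idh3a and Dlst then lay between -1.27 and -1.11. The percentile over detected spots raised each by 0.21.

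**Figure D3:**
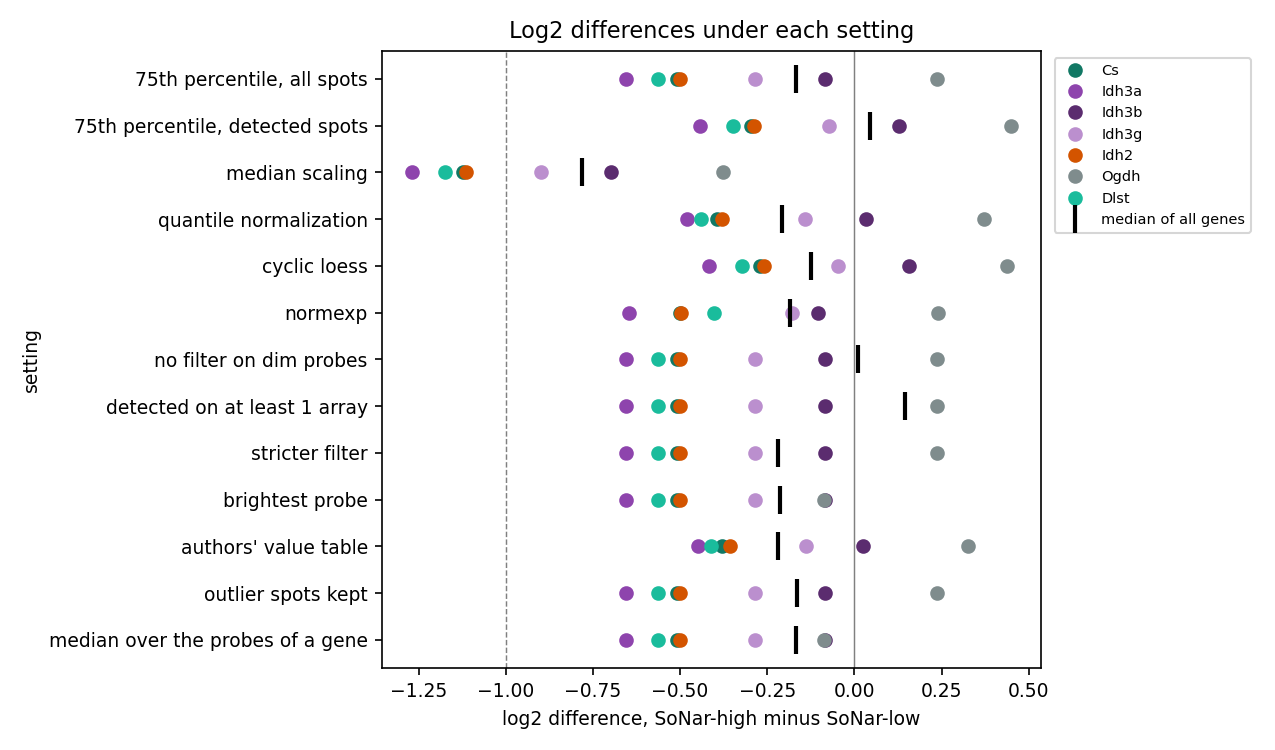
The log2 difference (x axis, SoNar-high level minus SoNar-low level) of the 7 measured members under 13 settings, with the median of all genes as a black bar and a dashed line at a 2-fold lower level. Idh3a is the lowest member in all 13 settings, and the members move together with the scaling.

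For the remaining steps of the cycle, all 12 enzymes were measured, 0 passed 2-fold in either direction (7 did on the lower side with median scaling), and their median was -0.43, with 10 of 12 below the median of all genes. The lowest was Sucla2, the ATP-forming succinyl-CoA ligase subunit, with signals of 2149 in SoNar-high cells and 3509 in SoNar-low cells and a difference of -0.85. The highest was Pcx, pyruvate carboxylase, with signals of 118 in SoNar-high cells and 87.0 in SoNar-low cells and a difference of 0.29. It was -0.15 with quantile normalization, -0.10 with cyclic loess, -0.11 with normexp, -0.32 with median scaling and -0.17 in the authors' deposited table. Suclg2, the GTP-forming succinyl-CoA ligase subunit, was also at 0.29, and was the highest of the 12 with quantile normalization (0.47), cyclic loess (0.51), normexp (0.20) and in the authors' deposited table (0.41). Dld, the dihydrolipoyl dehydrogenase that completes the oxoglutarate dehydrogenase complex, was at -0.60 as the mean of 2 probes. With its brightest probe alone it was at -0.79, against -0.56 for Dlst.

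Genes that carry or use citrate and oxoglutarate had a median of -0.05 over the 10 measured of 14, and a 2-fold difference was passed upwards by 1 gene and downwards by 0. That gene was D2hgdh, the mitochondrial dehydrogenase that oxidises D-2-hydroxyglutarate to oxoglutarate. Its measured probe had signals of 542 in SoNar-high cells and 178 in SoNar-low cells, a log2 difference of 1.47 or 2.76-fold, and 0.85 with median scaling. The other D2hgdh probes were not well above background on the SoNar-low array and had signals of 43.8 and 54.8 in SoNar-high cells, against 29.1 and 13.3 in SoNar-low cells. Got1, the cytosolic aspartate aminotransferase, was the lowest at -0.98 and passed 2-fold lower with median scaling, at -1.59. The oxoglutarate carrier Slc25a11 was at 0.03, but at -0.11 with normexp and -0.58 with median scaling. Of 13 other genes that supply NADPH, 9 were measured, 0 passed 2-fold, and the median was -0.24, from -0.75 for Mthfd2l to 0.25 for Aldh1l1, both of folate metabolism. With median scaling 3 of the 9 passed 2-fold lower, beside 3306 of all 10517 genes. Mthfd2l passed 2-fold lower with quantile normalization (-1.17), cyclic loess (-1.08), median scaling (-1.37) and in the authors' deposited table (-1.28). The direction of Aldh1l1 turned with the same settings and with normexp, to -0.23 with quantile normalization, -0.20 with cyclic loess, -0.08 with normexp, -0.37 with median scaling and -0.26 in the authors' deposited table. G6pdx, the entry enzyme of the pentose phosphate pathway, was at -0.11, but above 0 with the percentile over detected spots (0.10), quantile normalization (0.08), cyclic loess (0.11) and in the authors' deposited table (0.06). For the iron regulatory system to which Aco1 belongs, 6 of 8 genes were measured, 0 passed 2-fold, and the median was -0.05. With median scaling 1 passed on the lower side, beside 3306 of all 10517 genes. With no filter on dim probes 2 of 8 passed on the higher side, beside 2775 of 20618 genes. With detection on at least 1 array the count was also 2, beside 3203 of 15984 genes. Ireb2, iron regulatory protein 2, was at 0.10 and at -0.52 with median scaling. The lowest was Fbxl5, the ubiquitin ligase adaptor that targets it, at -0.80 and at -1.41 with median scaling. Slc11a2, an iron transporter, was the highest at 0.15, but was at -0.14 with quantile normalization and with normexp, -0.02 with cyclic loess, -0.46 with median scaling and -0.16 in the authors' deposited table, and at 0.61 with dim probes let in.

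**Figure D4:**
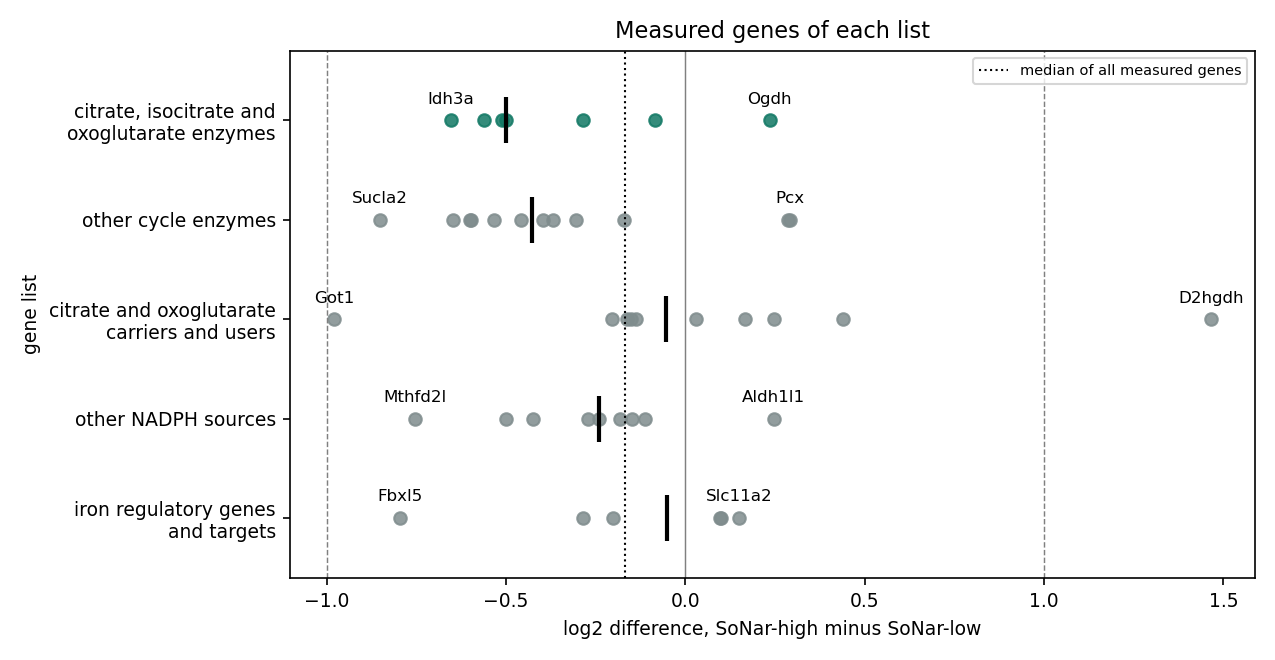
The log2 difference (x axis, SoNar-high level minus SoNar-low level) of the measured genes of each list, with the list median as a black bar, the median of all measured genes (-0.17) as a dotted line and a 2-fold difference as dashed lines. The lowest and the highest gene of each list are named, and D2hgdh at 1.47 is the only one past a dashed line.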

How the data were processed

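Total RNA of each sorted population was labelled with Cy3 and hybridised to 1 array, and the source names gave the groups. Linear intensity values per spot, with background subtracted and spatial trends removed by the scanner software, are what the authors deposited. The software was Agilent Feature Extraction 11.0.1.1 per the file headers and 9.1 per the submitters' processing notes. The deposited table holds log2 values by the authors, with their normalization not given in the sources used here, and served as an alternative only.

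Processed signals were taken as log2 and scaled to the 75th percentile of non-control spots. After removal of 685 spots flagged as outliers, the spots of each probe were averaged, and a gene was the mean of its probes well above background on both arrays. A gene detected on 1 array has a bound, computed against whichever is greater on the other array, the lowest detected level or the gene's own level. The threshold for a call was an absolute log2 difference of 1. No p-value was computed. The error of a difference combines the software's errors of both signals.

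The members and lists were chosen with earlier results of these data known. All members were described, and from each list the genes past 2-fold and the highest and lowest were named; Csl, Dld, Slc25a11, G6pdx and Ireb2 were added for their role, and Suclg2 and the markers named with values after these were seen. The calls were run on simulated data whose planted folds lay well beyond the threshold and whose noise was below that of the repeat spots. That run checks the code and cannot tell how reliable the calls are on these arrays. Promoter windows were matched by symbol. The 12 alternatives cover scaling, background correction, filters and probe choice, and 1 of them, the median over probes, was chosen after seeing the data. Leaving out Ogdh was also chosen then. It was applied only to the median of the members and is not among the 12. Python 3.11.15, numpy 2.4.6, pandas 2.3.3, matplotlib 3.10.9 and R 4.3.3 were used, with limma 3.58.1 for normexp (offset 50), quantile and cyclic loess normalization.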

Additional observations from a re-analysis of the deposited data

How the results depend on the processing

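No paired analysis was possible because there was 1 array per population, so none could be left out either. The contrast between NAD-linked and NADP-linked enzymes was 0.16 as reported and -0.85 with no filter on dim probes and with detection on at least 1 array, because Idh1 then enters. The median of the members, -0.50, was -0.29 with the percentile over detected spots, -1.11 with median scaling, -0.26 with cyclic loess and -0.29 with no filter or detection on at least 1 array. The count of members at least 2-fold higher was 1 of 9, Idh1, in the settings that let dim probes in. Over all genes it was 2775 of 20618 with no filter and 3203 of 15984 with detection on at least 1 array. The count of members at least 2-fold lower was 4 of 7 with median scaling, beside 3306 of 10517 genes. Against 512 genes at least 2-fold higher over all genes, the count was 806 when the percentile came from detected spots, 139 under median scaling, 262 under normexp, 337 under the stricter filter, 2775 without a filter and 3203 if 1 array sufficed for detection. Against 177 lower genes it was 67 when the percentile came from detected spots, 3306 under median scaling, 60 under normexp, 1751 without a filter, 350 with quantile normalization, 300 with cyclic loess and 430 in the authors' deposited table. Shifts of all values and looser or stricter filters give such changes by construction; for quantile normalization, cyclic loess, the deposited table and normexp the cause was not tested. Leaving out Ogdh moved the median of the members to -0.50 at the same rounding. Low signal limits Aco1 and Idh1, which lay near or under the detection limit of the SoNar-low array, and 6 of the 7 measured members rest on 1 probe each.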
